A study of Mus musculus with 10 samples.

Results

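The TNF superfamily of ligands and the superfamily of receptors that bind them were followed across 10 mouse thyroid carcinomas. Members were taken by name alone: Tnf, Lta, Ltb, Ltbr and every gene whose symbol starts with Tnfsf (a ligand) or Tnfrsf (a receptor), where the array annotation gives the probe set no other symbol. This rule found 33 of the 19938 genes measured, 12 ligands and 21 receptors, and each was read by 1 probe set, so that the choice among probe sets by highest mean did not come into play. The rule uses no measured value.

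Total RNA came from 5 papillary thyroid carcinomas (PTC) labelled TPOCreER; BrafV600E and from 5 anaplastic thyroid carcinomas (ATC) labelled TPOCreER; BrafV600E; p53 -/-, all of the mixed C57BL/6;129SvJae strain. TPOCreER is a Cre recombinase that tamoxifen switches on and whose promoter is that of thyroid peroxidase, so both groups carry the activated Braf allele in thyroid follicular cells, and ATC tumours also lack p53. Tumour type and p53 genotype therefore cannot be told apart, no group without Braf activation is analysed here, and the level of the deleted gene was not used. Age, sex and time after tamoxifen are not in the labels used here, and the labels call the tumours biological replicates without naming the animals. The p-values set group differences against the spread between tumours treated as independent, and could be too small if tumours shared an animal.

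Ligands of the TNF superfamily are mostly membrane proteins that assemble as trimers, many of which can be cut loose as soluble cytokines. Their receptors either carry a death domain, which can start caspase signalling or necroptosis, or recruit TRAF adaptors that switch on NF-kB and MAP kinase pathways, and some are decoys that bind a ligand without signalling. In tumours these genes are known from lymphocytes, macrophages and dendritic cells as well as from the carcinoma cells.

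Levels below are probe set intensities on the log2 scale, and a positive difference stands for a higher mean in ATC. Each mean is followed by ± its SD over the group's tumours (n = 5), and levels of different probe sets cannot be compared. A gene is said to have risen or fallen where limma gave it an adjusted p under 0.05 after Benjamini-Hochberg adjustment over all 19938 genes. The 10 arrays had medians of 7.25 to 7.34. Across genes, 2 PTC arrays correlated at 0.980 to 0.993, 2 ATC arrays at 0.970 to 0.981 and arrays of different types at 0.927 to 0.974. Thyroglobulin (Tg), the storage protein of thyroid follicles, ran from 11.28 to 12.88 in PTC and from 6.84 to 12.001 in ATC, with 2 ATC tumours (replicates 1 and 3) far below the others. Of 14 macrophage markers 12 were higher in ATC and none lower, whereas 5 of 10 T cell markers, 3 of 7 B and plasma cell markers, 3 of 7 dendritic cell markers and 4 of 6 epithelial markers were lower and none higher. Of 5 mast cell markers 3 were higher and 0 lower. Among genes past the threshold, the NK cell, endothelial cell and fibroblast lists (2 of 7 each), thyroid follicular cell list (2 of 8) and neutrophil list (1 of 8) had only falls. By sign alone, 4 of 7 NK cell, 3 of 7 fibroblast, 2 of 8 neutrophil, 1 of 7 endothelial and 0 of 8 thyroid markers had positive differences. Over all genes 11.5% rose and 9.72% fell. None of 7 skeletal muscle and 2 parathyroid markers passed, but both lists varied widely within the groups. The muscle markers summed to 9.96 to 12.45 in PTC and 10.35 to 11.95 in ATC. The parathyroid markers summed to 7.10 to 12.71 in PTC and 6.66 to 12.04 in ATC, so the share of neighbouring tissue may differ between tumours.

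In the superfamilies 7 of 33 genes passed the threshold, which is 21.2%, and over all genes the share was also 21.2%. Tnfrsf12a, Tnfrsf22 and Tnfrsf11a rose in ATC (9.09% of the members, against 11.5% of all genes), and Tnfrsf18, Tnfsf10, Tnfsf13b and Lta fell (12.1%, against 9.72% of all genes). All 3 rises were receptors, and 3 of the 4 falls were ligands: 0 of 12 ligands were higher and 3 lower, and of 21 receptors 3 were higher and 1 lower. Ligand probe sets were dimmer (median percentile of mean intensity 39.7) than receptor probe sets (62.1), a ranking of array signal that does not rank RNA amounts. Genes above the median intensity had a median difference of 0.06, against −0.02 over all genes. Whether intensity had a part in the split between ligands and receptors was not tested. The median difference was −0.07 over the members and −0.02 over all genes, and the median size of the difference was 0.19 against 0.14. No member differed by 1 log2 unit or more, a size that 4.54% of all genes reached. In tissue RNA, fewer cells of a type and less RNA per cell cannot be told apart.

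**Figure D1:**
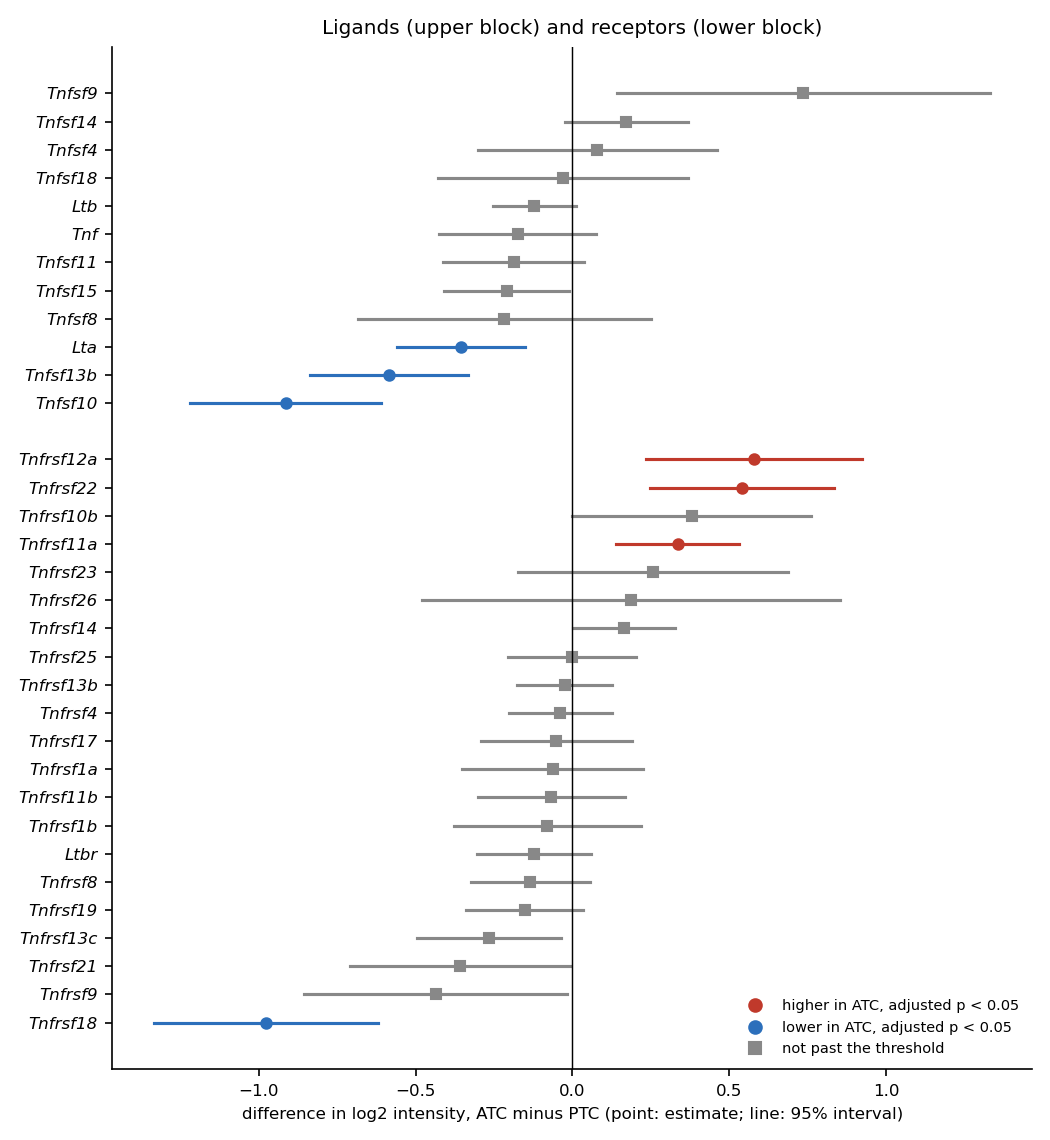
Difference in log2 intensity (horizontal axis, ATC minus PTC) of the 12 ligands in the upper block and the 21 receptors in the lower block; points are limma estimates, lines their 95% intervals, which are not adjusted for the number of genes. The 4 genes in blue (Tnfrsf18, Tnfsf10, Tnfsf13b and Lta) had an adjusted p under 0.05 and were lower in ATC, the 3 in red (Tnfrsf12a, Tnfrsf22 and Tnfrsf11a) were higher, and the squares in grey did not pass; the differences run from −0.98 to 0.74.

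Tnfsf10 encodes TRAIL, a ligand that can trigger apoptosis through death receptors, and it fell most among the ligands. Its levels were 7.78, 7.72, 7.89, 7.55 and 8.02 in PTC replicates 1 to 5 and 6.54, 7.297, 6.66, 6.91 and 6.97 in ATC replicates 1 to 5. All ATC tumours lay below all PTC tumours, with ATC replicate 2 closest to them and replicates 1 and 3 lowest. The difference was −0.91 (SE 0.14, 95% interval −1.22 to −0.61, adjusted p = 0.00107, limma), a 1.88-fold lower intensity.

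Tnfsf13b encodes BAFF, a survival factor for B cells that is made mainly by myeloid cells. PTC replicates 1 to 5 had 7.71, 7.44, 7.68, 7.50 and 7.70, and ATC replicates 1 to 5 had 7.01, 7.23, 6.62, 7.18 and 7.05. The groups did not overlap, and ATC replicate 3 was the lowest tumour. Tnfsf13b fell by 0.59 (SE 0.11, adjusted p = 0.0043, limma). Macrophage markers summed to a higher level in every ATC tumour (14.87 to 15.31) than in any PTC tumour (14.07 to 14.42), so that this ligand and that list differed in opposite directions, while the dendritic cell list summed to 11.21 to 11.55 in PTC and 9.88 to 10.90 in ATC. Of the 7 dendritic cell markers 3 were lower, and Flt3, Zbtb46, Xcr1 and Ccr7 did not pass. The part of macrophages or dendritic cells in the fall was not tested.

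Lta, lymphotoxin alpha of activated lymphocytes, was the smallest of the 3 falls among ligands. It stood at 7.39, 7.17, 7.32, 7.11 and 7.46 in PTC and at 6.73, 7.08, 6.88, 7.03 and 6.96 in ATC, in replicate order. The gap between the groups was narrow, from 7.08 in ATC replicate 2 to 7.11 in PTC replicate 4, but no tumour crossed it. The difference was −0.35 (SE 0.09, adjusted p = 0.0192, limma). The T cell markers summed to 10.74 to 11.22 in PTC and 10.11 to 10.63 in ATC and the B and plasma cell markers to 9.97 to 11.49 and 9.18 to 10.02, and their part in this difference was not tested.

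**Figure D2:**
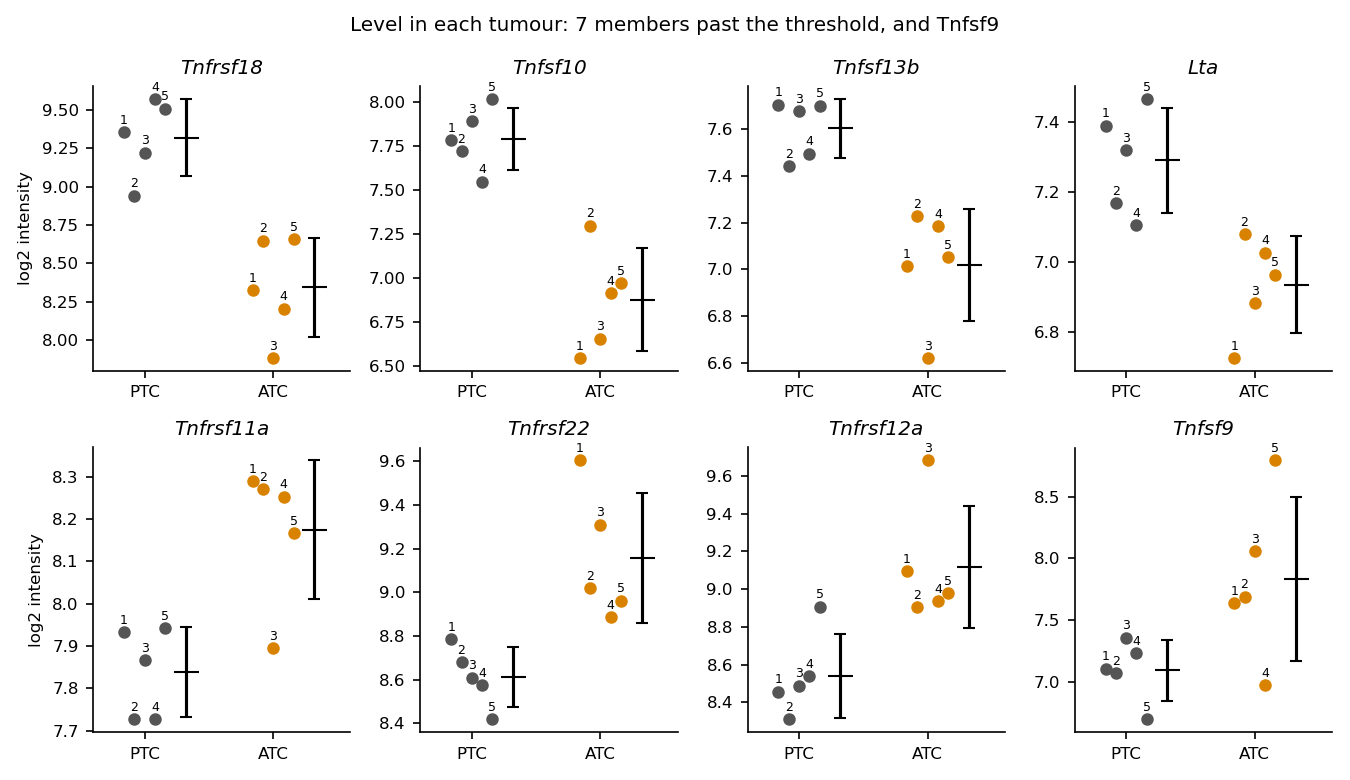
Level of 8 genes in each tumour (vertical axis, log2 intensity, with a range of its own in each panel that does not start at 0); numbers beside the points are replicate numbers, grey is PTC and orange ATC, and bars give the mean ± SD of 5 tumours. Tnfrsf18, Tnfsf10, Tnfsf13b and Lta lie lower in every ATC tumour than in any PTC tumour and Tnfrsf22 lies higher, whereas Tnfrsf11a, Tnfrsf12a and Tnfsf9 overlap.

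The promoters of the genes that fell furthest are printed here with those of the members that hold an NF-kB type motif, because NF-kB is the transcription factor family that TNF receptors activate and several members are known as its targets. Sequences are from RefSeq on build GRCm38.p6 and run from 250 bases before to 50 bases after the annotated start, 5′ to 3′ on the gene's strand, which is the plus strand in all 5. Tnfsf10 was read at chr3:27316827-27317126, Tnfsf13b (the downstream of its 2 annotated starts) at chr8:10006383-10006682, Tnfrsf18 at chr4:156026072-156026371, Ltb at chr17:35194257-35194556 and Tnfrsf9 (also the downstream of 2 starts) at chr4:150927749-150928048. Capitals mark matches, on either strand, to the NF-kB type motif (GGGA, any base, TT, any base, CC), the interferon response type motif GAAANNGAAA or the AP-1 type motif TGANTCA, where N is any base.
Tnfsf10: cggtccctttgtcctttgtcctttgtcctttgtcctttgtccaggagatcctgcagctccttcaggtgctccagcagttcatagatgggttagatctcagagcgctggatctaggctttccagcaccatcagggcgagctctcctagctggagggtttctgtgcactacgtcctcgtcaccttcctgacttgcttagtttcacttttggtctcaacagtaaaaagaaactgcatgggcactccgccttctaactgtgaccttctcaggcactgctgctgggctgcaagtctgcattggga
Tnfsf13b: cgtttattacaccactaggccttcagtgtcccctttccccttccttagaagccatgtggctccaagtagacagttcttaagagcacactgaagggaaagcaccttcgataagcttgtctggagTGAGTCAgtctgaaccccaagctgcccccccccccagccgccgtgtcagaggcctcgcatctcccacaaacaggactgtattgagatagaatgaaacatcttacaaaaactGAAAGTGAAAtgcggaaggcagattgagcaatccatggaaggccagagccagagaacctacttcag
Tnfrsf18: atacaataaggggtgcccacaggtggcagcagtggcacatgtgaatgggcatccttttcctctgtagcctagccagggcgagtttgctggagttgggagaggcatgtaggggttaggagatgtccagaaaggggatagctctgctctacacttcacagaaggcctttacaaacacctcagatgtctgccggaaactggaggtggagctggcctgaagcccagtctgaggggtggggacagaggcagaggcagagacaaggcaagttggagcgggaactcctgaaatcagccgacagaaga
Ltb: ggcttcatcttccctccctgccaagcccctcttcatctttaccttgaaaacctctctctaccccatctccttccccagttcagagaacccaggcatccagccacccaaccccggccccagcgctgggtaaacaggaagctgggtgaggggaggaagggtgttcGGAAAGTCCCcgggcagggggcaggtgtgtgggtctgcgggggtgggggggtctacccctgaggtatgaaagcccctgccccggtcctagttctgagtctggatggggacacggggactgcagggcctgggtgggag
Tnfrsf9: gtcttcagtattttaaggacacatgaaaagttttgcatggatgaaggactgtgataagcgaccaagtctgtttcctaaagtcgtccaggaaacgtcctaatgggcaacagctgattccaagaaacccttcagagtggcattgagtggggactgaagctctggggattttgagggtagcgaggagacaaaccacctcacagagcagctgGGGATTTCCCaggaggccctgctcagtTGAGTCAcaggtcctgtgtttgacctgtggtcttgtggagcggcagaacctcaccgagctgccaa
The windows of Tnfsf10 and Tnfrsf18 held none of the 3 motifs, which says only that these letters are not in these 300 bases. In Tnfsf13b an AP-1 type match began 127 bases before the start and an interferon response type match 16 bases before it. Ltb held an NF-kB type match on the other strand 87 bases before its start, and Tnfrsf9 held an NF-kB type match 42 bases and an AP-1 type match 15 bases before its start.

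RefSeq promoters were found for 27 of the 33 members, in 31 windows. The NF-kB type motif was in 2 of the 31 (6.45%) and in 1.2% of all 32851 windows in the table, and neither Ltb nor Tnfrsf9 passed the test. The interferon response type motif was in 4 windows (Tnfrsf14, Tnfrsf17, Tnfrsf1b and Tnfsf13b; 12.9%, against 3.44% of all windows), of which only Tnfsf13b passed. The AP-1 type motif was in 5 windows of 4 genes (Tnfrsf8, Tnfrsf9, Tnfsf14 and both overlapping windows of Tnfsf13b, which share the site; 16.1%, against 7.81%). A match of letters is a description and does not show that a factor binds there. Nor does a window without these exact letters show that no factor binds.

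The other 9 ligands did not pass, with differences from −0.22 to 0.74. Tnfsf9, the costimulatory ligand of Tnfrsf9 on antigen-presenting cells, had the largest difference of them. Its PTC levels were 7.11, 7.07, 7.36, 7.23 and 6.70 and its ATC levels 7.64, 7.69, 8.06, 6.98 and 8.79. Replicate 5 was the highest ATC tumour, replicate 4 lay inside the PTC range and the other 4 ATC tumours lay above it. The difference of 0.74 (SE 0.27) had an adjusted p of 0.0784 in limma, and without ATC replicate 4 it was 0.95 with an adjusted p of 0.0141.

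Tnf itself, the founding inflammatory cytokine, was at 7.50, 7.07, 7.33, 7.23 and 6.96 in PTC and 6.77, 7.21, 7.08, 7.10 and 7.06 in ATC. The groups overlapped, and only ATC replicate 1 lay below every PTC tumour. The difference was −0.17 with a 95% interval of −0.42 to 0.07 (adjusted p = 0.327, limma), an interval that holds a fall of up to 0.42 as well as no change. Ltb, the membrane anchor of the lymphotoxin heterotrimer, was lower in every ATC tumour (6.58 to 6.69) than in any PTC tumour (6.71 to 6.86), but by only 0.12 (difference −0.12, SE 0.06, adjusted p = 0.188).

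Ligands of T cell costimulation and of tissue signalling made up the rest. Tnfsf14 (LIGHT), which binds Tnfrsf14 and Ltbr, was at 6.504 ± 0.11 in PTC and 6.68 ± 0.16 in ATC (adjusted p = 0.212). Tnfsf4, the ligand of Tnfrsf4, was at 6.26 ± 0.38 and 6.34 ± 0.23 (adjusted p = 0.801), and Tnfsf18, the ligand of Tnfrsf18, at 6.97 ± 0.20 and 6.94 ± 0.42 (adjusted p = 0.932). For these 3 genes the groups overlapped, and the sign of the Tnfsf4 and Tnfsf18 differences turned when single tumours were left out. Tnfsf8, the ligand of the lymphocyte receptor Tnfrsf8, varied more within ATC than any ligand but Tnfsf9 (8.02 ± 0.21 in PTC, 7.80 ± 0.51 in ATC, adjusted p = 0.535). Tnfsf15, an endothelial cytokine that binds Tnfrsf25, was at 7.05 ± 0.08 and 6.84 ± 0.18 (adjusted p = 0.134). Tnfsf11 (RANKL), which drives osteoclast formation, was at 8.11 ± 0.19 and 7.92 ± 0.14 (adjusted p = 0.239).

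Tnfsf12 and Tnfsf13 are outside the rule, because their signal comes from a probe set that carries 3 symbols (Tnfsf12, Tnfsf13 and the read-through Tnfsfm13). That probe set was at 9.15 ± 0.04 in PTC and 9.20 ± 0.22 in ATC, a difference of 0.05 with an adjusted p of 0.810 over all probe sets in limma. Its signal cannot be divided among the 3.

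Tnfrsf18 encodes GITR, a costimulatory receptor of regulatory and activated T cells, and had the largest difference of all members. It was at 9.36, 8.94, 9.22, 9.57 and 9.51 in PTC replicates 1 to 5 and at 8.33, 8.65, 7.88, 8.20 and 8.66 in ATC replicates 1 to 5. The highest ATC tumours, replicates 5 and 2, stayed below the lowest PTC tumour, replicate 2. The fall was 1.97-fold (difference −0.98, SE 0.16, 95% interval −1.33 to −0.62, adjusted p = 0.00178, limma). Foxp3, the transcription factor that defines regulatory T cells, was at 7.48 ± 0.16 in PTC and 7.32 ± 0.09 in ATC (adjusted p = 0.244), and the 5 T cell markers that fell, named after their values were seen, were Cd2, Cd3e, Cd3g, Cd28 and Icos. The summed T cell level, given above with Lta, was lower in every ATC tumour than in any PTC tumour, and its part in the fall of Tnfrsf18 was not tested.

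The other costimulatory receptors did not pass. Tnfrsf9, induced on activated T and NK cells, was at 9.22, 8.95, 8.79, 8.55 and 8.95 in PTC and 8.68, 8.64, 8.15, 7.90 and 8.93 in ATC. ATC replicates 3 and 4 lay below the PTC range, and ATC replicates 1, 2 and 5 lay inside it. The difference of −0.44 (SE 0.19) had an adjusted p of 0.137 in limma. Tnfrsf4, the direct chromosomal neighbour of Tnfrsf18, was at 7.31 ± 0.05 and 7.28 ± 0.14 (adjusted p = 0.782). Tnfrsf8 (6.77 ± 0.09 and 6.63 ± 0.16, adjusted p = 0.327) and Tnfrsf25, a death-domain receptor of T cells (6.64 ± 0.05 and 6.64 ± 0.20, adjusted p = 0.998), overlapped between the groups as well. Tnfrsf14, which binds LIGHT and lymphotoxin alpha, was higher than the whole PTC range in 4 of 5 ATC tumours (7.36 ± 0.06 and 7.53 ± 0.13), with an adjusted p of 0.149.

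Tnfrsf12a (Fn14), the receptor for Tnfsf12, is induced by growth factors and injury in epithelial and mesenchymal cells. Its PTC levels were 8.46, 8.31, 8.49, 8.54 and 8.91, and its ATC levels 9.10, 8.90, 9.68, 8.94 and 8.98. ATC replicate 3 stood well above the others, and PTC replicate 5 reached the lowest ATC tumour. Tnfrsf12a rose by 0.58 (SE 0.16, adjusted p = 0.0219, limma), or 1.49-fold. The call was lost without PTC replicate 1, 2 or 3, with differences of 0.52 to 0.57 and adjusted p-values of 0.0511 to 0.0532. It held without ATC replicate 3 at 0.44, the lowest value among the fits that left out a tumour. Epithelial markers summed to 13.77 to 13.98 in PTC and 12.22 to 13.20 in ATC, the opposite direction, and their part in the rise was not tested.

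Tnfrsf11a (RANK) is the receptor for RANKL on osteoclast precursors, dendritic cells and some epithelia. It was at 7.93, 7.73, 7.87, 7.73 and 7.94 in PTC and 8.29, 8.27, 7.89, 8.25 and 8.17 in ATC. ATC replicate 3 fell inside the PTC range and the other 4 ATC tumours lay above it. The rise of 0.34 (SE 0.09, adjusted p = 0.0212, limma) no longer passed where PTC replicate 2, PTC replicate 4 or ATC replicate 1 was left out, each time at 0.31 with adjusted p-values of 0.0521 to 0.0568. Its soluble decoy Tnfrsf11b (osteoprotegerin) was at 7.07 ± 0.23 and 7.005 ± 0.09 (adjusted p = 0.721). The macrophage markers, whose sums are given with Tnfsf13b, were also higher in ATC, and their part in the rise of Tnfrsf11a was not tested.

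Tnfrsf22, Tnfrsf23 and Tnfrsf26 lie side by side on chromosome 7 in the mouse, and Tnfrsf22 and Tnfrsf23 encode decoy receptors for TRAIL. Tnfrsf22 was at 8.79, 8.68, 8.61, 8.57 and 8.42 in PTC and at 9.60, 9.02, 9.31, 8.89 and 8.96 in ATC, with no overlap. It rose by 0.54 (SE 0.13, adjusted p = 0.0141, limma), or 1.46-fold, and the call held with each tumour left out in turn. Tnfrsf23 overlapped between the groups (10.60 ± 0.40 and 10.86 ± 0.30, adjusted p = 0.410), and so did Tnfrsf26, the most variable receptor (9.01 ± 0.42 and 9.20 ± 0.68, adjusted p = 0.723). In Tnfrsf22, Tnfrsf23 and Tnfrsf26 alike, ATC replicates 1 and 3 were the highest ATC tumours. The 3 genes are close relatives, and signal from the others on each probe set was not checked.

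Death-domain receptors gave no call. Tnfrsf10b, the apoptosis-inducing TRAIL receptor, was at 7.69, 7.87, 7.93, 8.42 and 8.16 in PTC and at 7.997, 8.64, 8.48, 8.77 and 8.09 in ATC. Replicates 2, 3 and 4 of ATC lay above every PTC tumour and replicates 1 and 5 inside their range, and the difference of 0.38 (SE 0.17) had an adjusted p of 0.154. Tnfrsf1a, the widely expressed TNF receptor with a death domain, was at 8.85 ± 0.16 and 8.79 ± 0.28, a difference of −0.06 (95% interval −0.35 to 0.23, adjusted p = 0.794). Tnfrsf21, a death-domain receptor of neurons, epithelia and lymphocytes, was at 10.07 ± 0.29 and 9.71 ± 0.28 (adjusted p = 0.143).

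Tnfrsf1b, the TNF receptor of leukocytes and endothelium without a death domain, had a mean of 8.79 ± 0.17 in PTC against 8.71 ± 0.29 in ATC, a difference of −0.08 (95% interval −0.38 to 0.22, adjusted p = 0.737). In both TNF receptors ATC replicates 3 and 5 were the lowest and the highest ATC tumour. Ltbr, the lymphotoxin beta receptor of stromal cells, was at 7.83 ± 0.12 and 7.71 ± 0.12 (adjusted p = 0.348). Tnfrsf19, an epithelial and neural receptor of the family, was at 6.94 ± 0.09 and 6.79 ± 0.16 (adjusted p = 0.249).

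The 3 receptors for BAFF did not pass either, although their ligand fell. Tnfrsf13c (BAFF receptor), which keeps mature B cells alive, was lower than the whole PTC range in 4 of 5 ATC tumours (7.82 ± 0.11 and 7.55 ± 0.22, difference −0.27, adjusted p = 0.0992). Tnfrsf13b (TACI) was at 7.64 ± 0.10 and 7.62 ± 0.06 (adjusted p = 0.850), and Tnfrsf17 (BCMA), the plasma cell receptor, at 6.59 ± 0.15 and 6.54 ± 0.21 (adjusted p = 0.799). The B and plasma cell markers that fell, named after their values were seen, were Cd79b, Blk and Jchain.

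Ligands were set against receptors they are known to bind, in a list of 23 pairs. The list leaves out the TRAIL decoy receptors Tnfrsf22 and Tnfrsf23. Of the 23 listed pairs, 20 had both partners among the members, and in 0 of these did both partners pass. In 10 pairs 1 partner passed and in 10 neither did, and in 7 pairs the partners differed in opposite directions by sign. Over all genes 21.2% passed, so both passing would be rare among unrelated pairs too, and the counts were not compared with random pairs. TRAIL was lower while its death receptor Tnfrsf10b had a positive difference of 0.38, GITR was lower while its ligand Tnfsf18 differed by −0.03, and RANK was higher while RANKL differed by −0.19. Outside the list, TRAIL (−0.91) and its decoy receptor Tnfrsf22 (0.54) both passed, in opposite directions. A ligand or receptor can appear in several pairs, so the pairs are not independent.

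**Figure D3:**
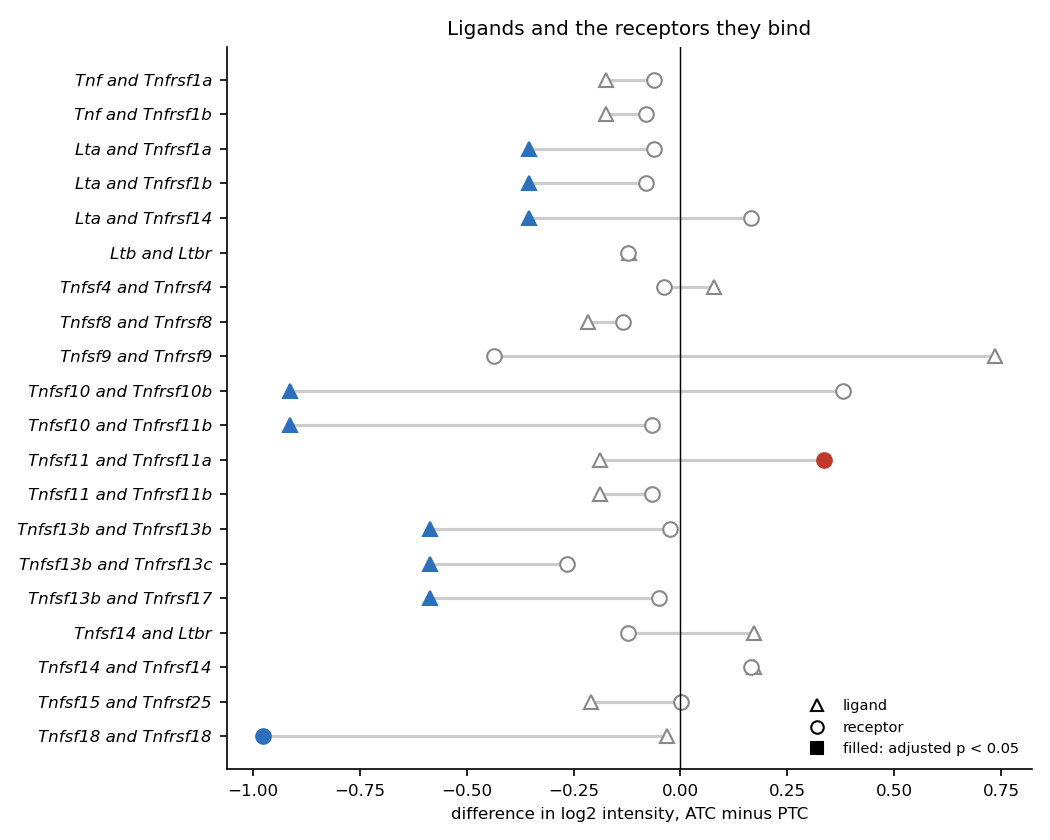
Difference in log2 intensity (horizontal axis, ATC minus PTC) of ligand (triangle) and receptor (circle) for the 20 pairs with both partners measured; filled symbols had an adjusted p under 0.05, blue lower and red higher in ATC. No pair drawn has both symbols filled, where 21.2% of all genes passed, and the widest gap drawn is that of Tnfsf10 (−0.91) and Tnfrsf10b (0.38). Tnfsf10 with its decoy receptors Tnfrsf22 and Tnfrsf23 is not drawn.

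Many of these genes lie in clusters, and 18 of the 33 members had another gene of the superfamilies close by, with at most 5 protein-coding genes between. Neighbours made 13 pairs, which include Cd70, Fasl and Cd27 as superfamily genes under other symbols. In 0 of the 13 did both genes pass, in 4 did 1 pass and in 9 neither. Over all genes 21.2% passed, so these counts do not by themselves set the neighbours apart, and other neighbouring genes were not counted. On chromosome 17 Ltb, Tnf and Lta follow each other directly with differences of −0.12, −0.17 and −0.35, and Lta alone passed. On chromosome 4 Tnfrsf18 fell by 0.98, and its direct neighbour Tnfrsf4 had a difference of −0.04. Also on chromosome 17, Tnfsf9, Cd70 and Tnfsf14 differed by 0.74, −0.09 and 0.17, and none of them passed.

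Individual ATC tumours differed in which genes stood out. ATC replicate 3 was the lowest of the 10 tumours in Tnfrsf18 and Tnfsf13b and the highest in Tnfrsf12a, while in Tnfrsf11a it was the lowest ATC tumour and lay with the PTC tumours. ATC replicate 1 was the lowest in Tnfsf10 and Lta and the highest in Tnfrsf22, Tnfrsf11a and Tnfsf18. ATC replicate 5 was the highest in Tnfsf9 and Tnfrsf1a and the lowest in Tnfsf8 and Tnfrsf17. ATC replicates 5 and 3 also had the lowest limma array weights of the 10 arrays (0.375 and 0.556), against 1.05 for ATC replicate 1. These weights are estimated over all genes and are low where an array deviates more, so extremes in these tumours need not be particular to the superfamilies. The SD was larger in ATC than in PTC for 23 of 33 members (69.7%), and for 68.6% of all genes. Groups that did not overlap were found for 6 members (1 higher and 5 lower in ATC; 18.2%), and for 16.9% of all genes.

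**Figure D4:**
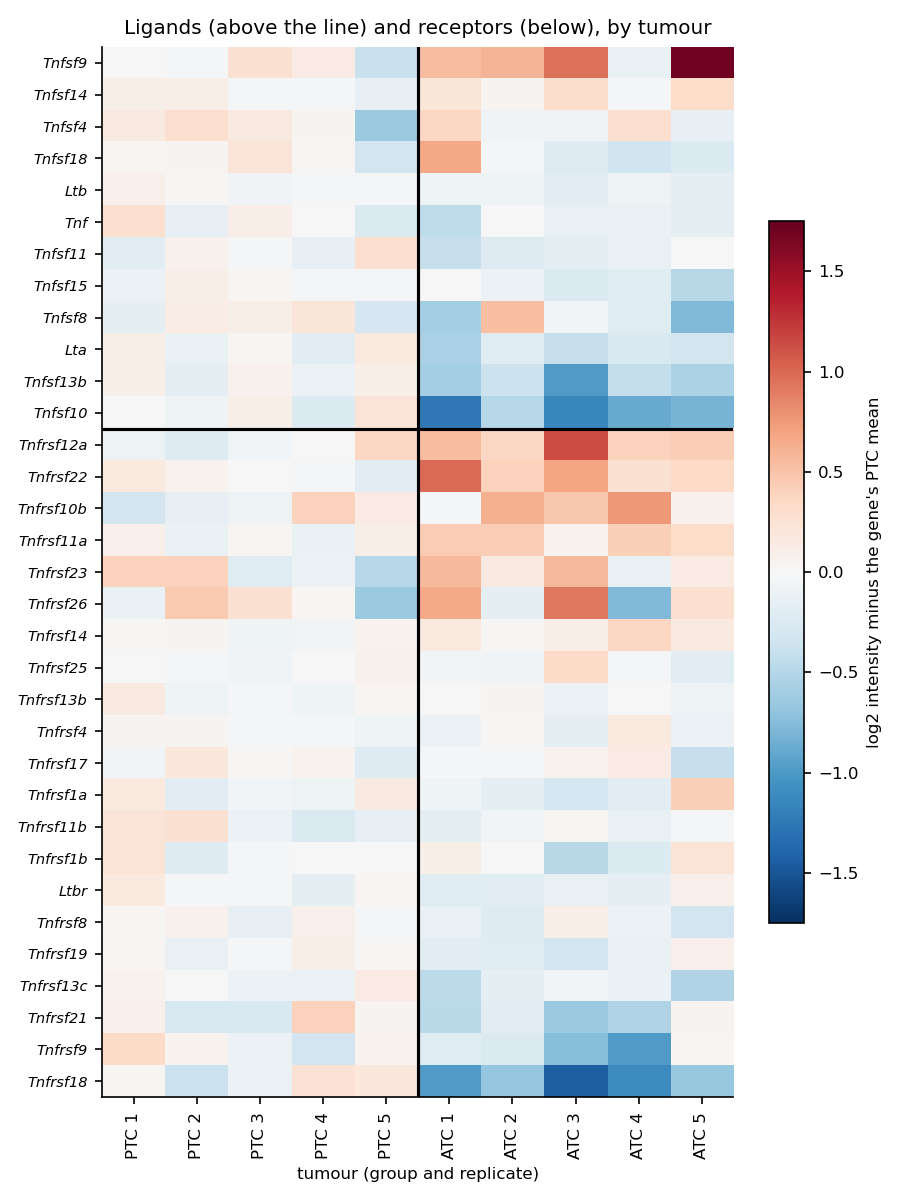
Level of each of the 33 members (rows) in each of the 10 tumours (columns), as log2 intensity minus the gene's PTC mean, with red above and blue below that mean; ligands are above the horizontal line and receptors below, in order of their difference, and the vertical line divides PTC from ATC. The deepest red is Tnfsf9 in ATC replicate 5, and the deepest blue squares are those of Tnfrsf18 in ATC replicate 3 and Tnfsf10 in ATC replicate 1.

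Other genes of the pathway were read from 6 lists of 71 genes, of which 67 had a probe set of their own. Of these 67, 4 were higher and 5 lower in ATC (13.4%, against 21.2% of all genes), with a median difference of −0.09. The 4 superfamily ligands under other symbols (Cd40lg, Fasl, Cd70 and Eda) did not pass, with differences from −0.32 to 0.04. Of 7 receptors under other symbols, 1 was lower and 0 higher: Eda2r, an ectodysplasin receptor, was at 7.79, 7.94, 7.97, 8.08 and 8.08 in PTC and at 6.86, 7.27, 7.28, 7.296 and 6.80 in ATC. The groups did not overlap (difference −0.87, SE 0.12, adjusted p = 0.000561, limma). Cd40 was also lower in every ATC tumour (7.62 ± 0.05 and 7.46 ± 0.06) but did not pass (adjusted p = 0.0925), and the death receptor Fas was at 8.49 ± 0.27 and 8.06 ± 0.42 (adjusted p = 0.146).

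Of 14 adaptors and death signalling proteins 2 were higher and 0 lower. Mlkl, the pore-forming protein of necroptosis, was at 7.57, 8.11, 8.15, 8.12 and 8.18 in PTC and at 8.81, 8.64, 9.48, 9.54 and 8.98 in ATC. Every ATC tumour lay above every PTC tumour, and the rise was 2.09-fold (difference 1.06, SE 0.19, adjusted p = 0.00241, limma). The kinase that activates it, Ripk3, was at 8.15 ± 0.10 and 7.73 ± 0.34 (difference −0.42, adjusted p = 0.0561). Traf5, an adaptor of several of these receptors, differed by 0.31 (SE 0.10, adjusted p = 0.0446), a call that was lost in 8 of the 10 fits that left out a tumour, with differences of 0.26 to 0.33 and adjusted p-values of 0.0592 to 0.103, and held without PTC replicate 5 or without ATC replicate 4. The caspase Casp8 was at 11.34 ± 0.15 and 11.39 ± 0.08 (adjusted p = 0.736).

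Of 18 NF-kB subunits and regulators 1 was higher and 0 lower. It was Nfkbia, the NF-kB inhibitor that NF-kB itself induces, at 8.26, 8.42, 7.98, 8.18 and 8.02 in PTC and 8.82, 8.20, 8.72, 9.07 and 8.98 in ATC. ATC replicate 2 lay inside the PTC range and the other 4 ATC tumours above it. The rise of 0.58 (SE 0.15, adjusted p = 0.0197, limma) did not pass without PTC replicate 3 (0.54, adjusted p = 0.0524). Tnfaip3, the feedback inhibitor A20, was at 8.29 ± 0.27 and 8.14 ± 0.10 (adjusted p = 0.425), and the median difference of the 18 genes was −0.01. In the list of shedding and processing genes 0 of 6 passed, among them Adam17, the protease that frees TNF (9.71 ± 0.22 and 9.79 ± 0.21, adjusted p = 0.718), and its inhibitor Timp3 (11.53 ± 0.32 and 10.72 ± 0.62, adjusted p = 0.0508).

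Of 18 genes known to respond to TNF and NF-kB 4 were lower and 1 higher, and their median difference was −0.05. Icam1, the leukocyte adhesion molecule, was at 9.31, 9.49, 9.64, 9.40 and 9.69 in PTC and 7.16, 8.45, 7.33, 7.90 and 7.80 in ATC, a 3.43-fold fall with no overlap (difference −1.78, SE 0.21, adjusted p = 0.000288, limma). Vcam1, another adhesion molecule, rose from 9.47 ± 0.22 to 10.50 ± 0.64 (adjusted p = 0.016), although ATC replicate 2 lay inside the PTC range. Icam1 and Vcam1 thus differed in opposite directions, and the endothelial adhesion gene Sele, the other adhesion molecule listed, did not pass (7.39 ± 0.18 and 7.42 ± 0.35, difference 0.04, 95% interval −0.31 to 0.38, adjusted p = 0.903). The prostaglandin synthase gene Ptgs2 fell by 0.85, the neutrophil chemokine gene Cxcl1 by 0.69 and the chemokine gene Ccl20 by 0.30, with adjusted p-values of 0.0146, 0.013 and 0.0139. The cytokine genes Il1b (10.79 ± 0.85 and 9.33 ± 1.19, adjusted p = 0.0866) and Il6 (6.21 ± 0.34 and 6.96 ± 0.86, adjusted p = 0.169) did not pass.

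**Figure D5:**
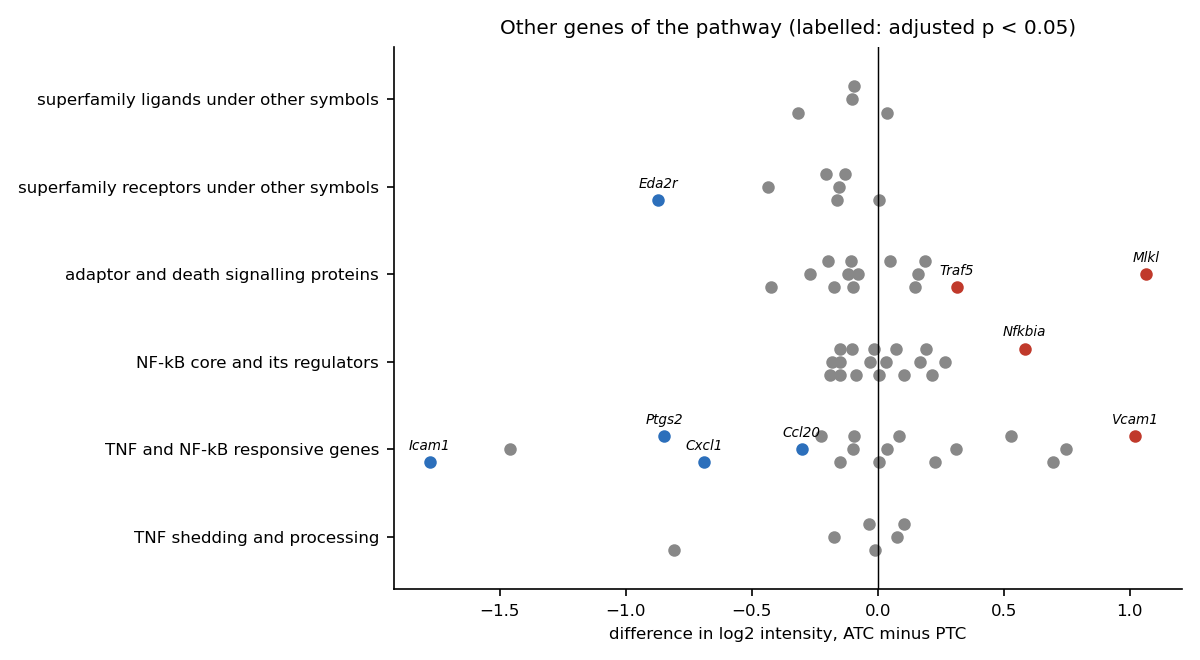
Difference in log2 intensity (horizontal axis, ATC minus PTC) of each of the 67 other pathway genes, 1 point per gene, by list (vertical axis; the vertical offset of points within a list only separates them). Coloured and named points had an adjusted p under 0.05: 5 lower in ATC (blue; Icam1, Eda2r, Ptgs2, Cxcl1 and Ccl20) and 4 higher (red; Mlkl, Vcam1, Nfkbia and Traf5).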

How the data were processed

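RNA of 10 tumours, 1 array each, was labelled with the Affymetrix whole-transcript sense-target kit, per the labels' protocols. The authors deposited 1 table of log2 intensity values for 35556 probe sets; that they are log2 was read from their range, as the scale is not stated. Affymetrix Power Tools and limma are listed, with no version or role, per the submitters' processing notes. How background was corrected and arrays were normalized, and on which build, is not given in the sources used here, nor are detection calls, so no gene can be called absent and differences of dim genes may be compressed. Precision is limited by the number of arrays.

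Genes were named from 21789 probe sets with 1 symbol in the platform annotation, and each of 19938 genes was read by its probe set with the highest mean. ATC and PTC were compared in R 4.3.3 with limma 3.58.1 (lmFit, then eBayes), with no covariate and with Benjamini-Hochberg adjustment over all genes at 0.05; the procedure was tested on simulated data. Groups and replicate numbers came from the sample titles. The members, the pathway and marker lists and the tests were chosen with earlier results of these data known. The naming rule took every member, and of each pathway list the genes past the threshold; other pathway genes named with their values (Cd40, Fas, Ripk3, Casp8, Tnfaip3, Adam17, Timp3, Sele, Il1b and Il6) and markers were picked after their values were seen. Summed marker levels are log2 of the sum of the list's intensities, so the brightest probe sets weigh most. Promoter motifs were searched in RefSeq windows on GRCm38.p6; the interferon response and AP-1 type motifs were added after the data were seen. Alternatives were a replicate block, other probe set rules, filters on dim genes, another normalization or centring, a variance trend, array weights and each tumour left out in turn. Python 3.11.15 and matplotlib 3.10.9 drew the figures.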

Additional observations from a re-analysis of the deposited data

Results flagged for a closer look

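In 66 groups of 5 tumours (33 members in 2 tumour types), the highest or lowest tumour was set against the rest by its gap to the nearest other tumour as a share of the whole range, with a critical value of 0.71. Chance alone marks about 5% of such groups, and 3 of the 66 (4.55%) were marked. ATC replicate 3 had Tnfrsf12a at 9.68, against 8.90 to 9.10 in the other ATC tumours. ATC replicate 5 had Ltbr, the lymphotoxin beta receptor, at 7.92, against 7.62 to 7.71. PTC replicate 5 had Tnfsf4, the costimulatory ligand of Tnfrsf4, at 5.61, against 6.32 to 6.55 in the other PTC tumours.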

How the results depend on the processing

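Tnfrsf18, Tnfsf10, Tnfsf13b and Tnfrsf22 passed under every alternative in which they were tested. With the replicate block 2 members were higher and 4 lower: Lta (adjusted p = 0.0600) and Tnfrsf11a (0.0503) no longer passed and Tnfrsf9 did (0.0326); Nfkbia (0.0522) and Traf5 (0.0606) were lost too. Same-numbered tumours did not deviate together (correlations −0.09 to 0.12, with only replicate 5 closest to its own number), so the numbers are not taken as pairs. Leaving out each tumour in turn gave 1 (without PTC replicate 2) to 4 (without ATC replicate 4, adding Tnfsf9) members higher and 4 lower throughout. Among genes above the median level 16 members were tested and 1 was lower, since Lta, Tnfsf10 and Tnfsf13b were left out. Of 609 single-gene values for members, 20 changed sign, in 8 members of which 0 had passed. These were Tnfrsf13b with quantile normalization (0.00369), centring (0.0152) and array weights (0.0211), Tnfrsf17 with quantile normalization (0.00737), Tnfrsf4 with quantile normalization (0.00433) and centring (0.00186), and Tnfsf18 with the same (0.0221 and 0.00938). With a tumour left out, differences ran from −0.129 to 0.000544 in Tnfrsf11b, −0.0459 to 0.0149 in Tnfrsf13b, −0.106 to 0.0366 in Tnfrsf17, −0.160 to 0.0225 in Tnfrsf1b, −0.0826 to 0.0515 in Tnfrsf25, −0.208 to 0.0478 in Tnfsf18 and −0.0844 to 0.1501 in Tnfsf4. The cause was not tested. Counts of the small pathway lists moved by at most 2 genes: adaptors went from 2 higher to 1 and from 0 lower to up to 2, NF-kB genes ran from 0 to 2 higher and 0 to 1 lower, responsive genes from 1 to 2 higher and 3 to 6 lower, and ligands under other symbols and shedding genes from 0 to 1 lower.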
